A study of Mus musculus with 16 samples.

Results

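The 10 genes described here, Zbtb16, Fkbp5, Sgk1, Klf9, Per1, Tsc22d3, Dusp1, Errfi1, Cebpd and Pck1, are classical targets of the glucocorticoid receptor. They were chosen from measured values of this experiment, the differences between COUP-TFI-/- and wild-type P0 inner ears in the GCRMA and dChip columns. Their genotype differences are therefore given as a description, with no test. All 10 of the 10 genes were on the chip, where 13 of the 12422 probe sets tested carried one of these symbols as their single platform annotation. Zbtb16, Klf9 and Errfi1 each had 2 probe sets. The study asked which genes depend on COUP-TFI (Nr2f1), an orphan nuclear receptor, in the newborn mouse inner ear. Wild-type and COUP-TFI-/- mice were of the 129SvEv strain, and the knockout animals lacked COUP-TFI in all tissues, a genotype with frequent death around birth. Total RNA of whole inner ears was pooled over several tissue samples and hybridized to 8 Affymetrix MG-U74Av2 chips. By the methods, 2 sets were hybridized at different times, and within a set 1 pool of each genotype went onto 2 chips. The letter of a chip label, A or B, was read as its set and the number, 1 or 2, as the duplicate. The labels themselves do not state this. There were thus 2 pools and 4 chips per genotype, and the gap between chips of a pool reflects the array and not the animals. A whole inner ear holds sensory epithelium, nerve, vessels, cartilage and blood cells, and in such bulk RNA fewer cells of a type and less RNA per cell cannot be told apart.

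The glucocorticoid receptor rests in the cytoplasm in a complex of chaperones and moves to the nucleus once it binds corticosterone, the main glucocorticoid of mice. As a dimer it binds a palindrome of hexamers and induces genes that limit inflammation, mobilize fuel, slow growth and dampen its own activity. In the inner ear, glucocorticoids act on ion transport in the stria vascularis and on the response to noise and inflammation, and around birth they drive maturation of several organs. COUP-TFs bind direct repeats of the nuclear receptor half-site, and the gene for the gluconeogenic enzyme Pck1 is a textbook case of a promoter read by both receptors.

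RefSeq promoter windows on GRCm38.p6, which reach from 250 bases before to 50 bases after a start site, were given for 8 of the 10 genes (17 windows; all but Zbtb16 and Cebpd) and for 27025 genes in all (32851 windows). The 4 windows below are shown because each holds an E-box, the element that clock factors bind, and because the first also holds the receptor palindrome. Capitals mark every match, on either strand, of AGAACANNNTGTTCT (the receptor palindrome), GNACANNNTGTNC (its core), AGAACA (its half-site), AGGTCA (the nuclear receptor half-site), TGACGTCA (the cyclic AMP response element) and CACGTG (the E-box).
Sgk1 chr10:21993640-21993939 (+): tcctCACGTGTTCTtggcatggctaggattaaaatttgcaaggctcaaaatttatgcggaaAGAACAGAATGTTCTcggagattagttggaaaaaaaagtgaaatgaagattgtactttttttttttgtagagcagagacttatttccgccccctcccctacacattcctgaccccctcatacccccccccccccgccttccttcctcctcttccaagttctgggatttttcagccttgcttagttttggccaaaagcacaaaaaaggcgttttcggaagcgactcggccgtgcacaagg
Fkbp5 chr17:28486100-28486399 (-): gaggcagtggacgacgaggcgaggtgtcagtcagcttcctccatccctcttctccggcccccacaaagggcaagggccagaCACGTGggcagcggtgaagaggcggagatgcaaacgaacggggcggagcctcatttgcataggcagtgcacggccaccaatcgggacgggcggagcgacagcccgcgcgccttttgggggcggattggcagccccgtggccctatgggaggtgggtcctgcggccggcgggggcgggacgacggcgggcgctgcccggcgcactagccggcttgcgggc
Per1 chr11:69098699-69098998 (+): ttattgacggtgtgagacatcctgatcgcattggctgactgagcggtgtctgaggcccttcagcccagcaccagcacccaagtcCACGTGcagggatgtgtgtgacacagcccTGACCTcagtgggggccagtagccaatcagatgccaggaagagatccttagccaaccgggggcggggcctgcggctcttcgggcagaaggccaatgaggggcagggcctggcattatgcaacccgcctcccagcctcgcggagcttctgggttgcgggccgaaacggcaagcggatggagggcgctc
Dusp1 chr17:26508423-26508722 (-): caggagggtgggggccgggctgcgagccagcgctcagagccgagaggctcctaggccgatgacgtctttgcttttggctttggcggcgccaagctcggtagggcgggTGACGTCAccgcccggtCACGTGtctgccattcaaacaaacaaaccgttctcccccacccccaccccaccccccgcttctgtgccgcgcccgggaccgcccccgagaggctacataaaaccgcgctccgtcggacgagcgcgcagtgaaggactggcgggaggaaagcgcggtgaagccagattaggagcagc
The palindrome occurred in 3 of all windows (0.00913%), and one of them was the Sgk1 window shown, where it began at position -189 from the start site. Its core occurred in 156 windows (0.475%), of which the same Sgk1 window was the one match among the 17 windows. The half-sites inside a palindrome overlap it, and in this window a further half-site, on the other strand, overlaps the E-box. Receptor half-sites alone were common, at 19.0% of all windows, and were found in windows of Sgk1 and Tsc22d3. The nuclear receptor half-site stood in 16.3% of all windows and in windows of Errfi1, Sgk1 and Per1. Its direct repeat with a spacer of 1 base, AGGTCANAGGTCA, occurred in 13 windows (0.0396%), with no match in the 17 windows searched. That search was for exact letters in short windows. The study's own sequence model allows other spacers and reaches further from the start site. It placed conserved predicted sites in promoters or first introns of Fkbp5, Zbtb16, Klf9 and Per1. The study ranks these genes among its leading candidate COUP-TFI targets, a ranking that also used these array values. The cyclic AMP response element (1.79% of all windows) was found for Errfi1 and Dusp1, and the E-box (7.15%) for Sgk1, Per1, Dusp1 and Fkbp5. Such matches describe the letters of these windows and not binding.

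For Pck1, the study's own collection of published COUP-TF sites holds 2 mouse sequences. They are shown because they tie this gene to the COUP-TFs, of which COUP-TFI is a member. The collection is of COUP-TF sites in general. Capitals mark the half-sites.
Pck1 site of type Dr0: gccTGCCCTTGACCCcca
Pck1 site of type Dr1: tcaTGACCTtTGGCCGtgg

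The targeted gene was read first. Nr2f1 (102715_at) had GCRMA values, which are on a log2 scale, of 8.83, 8.72, 7.90 and 7.74 on wild-type chips A1, A2, B1 and B2. On the COUP-TFI-/- chips in the same order the values were 5.27, 5.08, 4.68 and 4.69. Every knockout chip was below every wild-type chip, and the mean difference was -3.37 ± 0.11 (SE, limma adjusted p = 5.9e-11), with -3.60 in set A and -3.14 in set B. SE here and below is limma's moderated value, drawn mostly from the spread of all probe sets. It can be smaller than the gap between the sets would give, and is unlike the SD over 2 sets. Chip medians lay between 7.20 and 7.23 for GCRMA, and the correlation between chips of 1 pool, computed over probe sets that are not independent of each other, was 0.996 to 0.997.

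Of the 13 probe sets, 11 had a higher mean in COUP-TFI-/- than in wild-type in both sets, 1 had a lower mean in both sets (Pck1), and 1 changed direction between the sets (Tsc22d3). The 11 include values near 0, those of Zbtb16 (92201_at) at 0.0003 in set A and 0.0184 in set B. Klf9 (93528_s_at) is also among them, with 0.03 in set B. Among all probe sets tested, 24.2% were higher in both sets. Within each set, both knockout chips were above both wild-type chips for 9 probe sets of 8 genes, against a background of 4.60% of all probe sets. For 6 probe sets, of 6 genes, every knockout chip was above every wild-type chip across both sets, against 1.35%. The median difference over the 13 probe sets was 0.35 on the log2 scale, against 0.00 over all probe sets, and the values ran from -0.30 to 1.03. With 1 probe set per gene the median was 0.36. These shares and medians restate how the genes were chosen and carry no test.

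**Figure D1:**
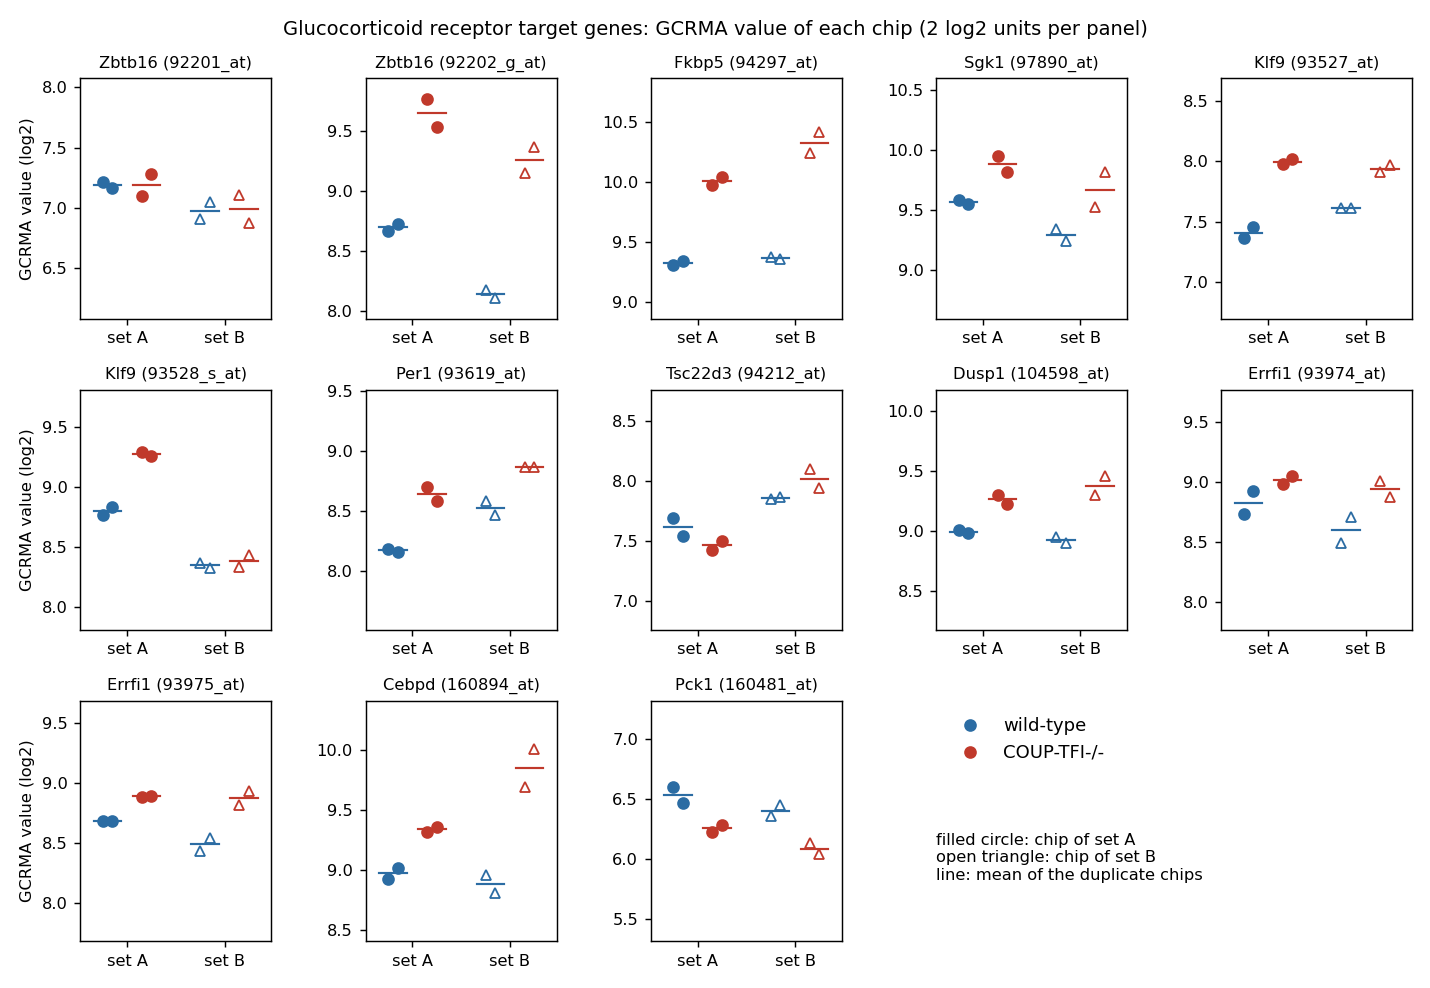
GCRMA value (log2, vertical axis, 2 log2 units in every panel) of each chip for the 13 probe sets, by hybridization set, with wild-type in blue, COUP-TFI-/- in red and a line at the mean of each pair of duplicate chips. The knockout chips of Zbtb16 (92202_g_at), Fkbp5 and Cebpd stand apart from the wild-type chips in both sets, and those of Pck1 lie below them.

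The first group acts on the receptor or follows its activity most closely. Fkbp5 encodes a co-chaperone that lowers the receptor's affinity for hormone and is itself induced by it, a short feedback loop. Its GCRMA values (94297_at) were 9.31, 9.34, 9.38 and 9.36 on wild-type chips A1, A2, B1 and B2 and 9.97, 10.04, 10.24 and 10.42 on the COUP-TFI-/- chips. The wild-type chips were nearly level across both sets and all lay below all knockout chips. The knockout was higher by 0.68 in set A and by 0.96 in set B, a mean of 0.82 ± 0.20 (SD over 2 sets) or 1.77-fold. By dChip, whose values are intensities on a linear scale, wild-type chips ran from 975 to 1078 and knockout chips from 1391 to 1855, again without overlap.

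Zbtb16 (PLZF) encodes a zinc finger repressor that is among the genes most sensitive to glucocorticoids in many cell types. Probe set 92202_g_at read 8.67, 8.73, 8.18 and 8.11 on the wild-type chips A1, A2, B1 and B2 and 9.76, 9.53, 9.15 and 9.37 on the knockout chips. All knockout chips were above all wild-type chips, and both genotypes were lower in set B. The genotypes were 0.95 apart in set A and 1.12 apart in set B, with a mean of 1.03 ± 0.12 (SD over 2 sets) or 2.05-fold, the largest of the 13. The other Zbtb16 probe set, 92201_at, read 7.21, 7.16, 6.90 and 7.04 in wild-type and 7.10, 7.28, 7.11 and 6.87 in COUP-TFI-/-. Here the genotypes overlapped in both sets, and the mean difference was 0.01. The 2 probe sets of this gene thus gave different values, also by dChip, with 0.96 for the former and 0.02 for the latter, whose sets stood at 0.20 and -0.15.

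Tsc22d3 (GILZ) encodes a leucine zipper protein that carries much of the anti-inflammatory action of glucocorticoids. Its values (94212_at) were 7.69, 7.54, 7.85 and 7.87 in wild-type and 7.42, 7.50, 8.09 and 7.94 in COUP-TFI-/-. In set A both knockout chips were below both wild-type chips, by a mean of 0.15 log2 units, and in set B both were above, by 0.16. The mean difference was 0.00, and dChip gave a mean of -0.06 with knockout lower in both sets.

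The second group consists of transcription factors induced by the hormone. Cebpd encodes a C/EBP factor of the acute phase response and of early fat cell differentiation. Its GCRMA values (160894_at) were 8.93, 9.02, 8.96 and 8.81 in wild-type and 9.32, 9.36, 9.69 and 10.01 in COUP-TFI-/-. No knockout chip overlapped a wild-type chip, but the difference was uneven between the sets, at 0.37 for A and 0.97 for B (mean 0.67 ± 0.43, SD over 2 sets). By dChip the same contrast gave 0.53 for set A and 1.04 for set B.

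Klf9 encodes a Kruppel-like factor that responds to both glucocorticoids and thyroid hormone. Probe set 93527_at read 7.36, 7.45, 7.61 and 7.62 in wild-type and 7.98, 8.02, 7.91 and 7.97 in COUP-TFI-/-. All 4 knockout chips were above all 4 wild-type chips, by 0.59 in set A and 0.33 in set B. Probe set 93528_s_at read 8.77, 8.84, 8.37 and 8.33 in wild-type and 9.30, 9.26, 8.33 and 8.43 in COUP-TFI-/-. For this probe set the genotypes were apart in set A, by 0.48, and overlapped in set B, where they differed by 0.03. In dChip both Klf9 probe sets were higher in knockout in each set, by means of 0.29 and 0.26.

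Per1 encodes a negative arm of the circadian clock whose gene is also acutely induced by glucocorticoids. It read (93619_at) 8.19, 8.16, 8.59 and 8.47 in wild-type and 8.70, 8.58, 8.87 and 8.87 in COUP-TFI-/-. The knockout chips were higher within each set, by 0.47 and 0.34, while wild-type chip B1 reached the level of knockout chip A2. The mean difference was 0.41 ± 0.09 (SD over 2 sets), and 0.31 by dChip.

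The third group consists of signalling enzymes and their inhibitors. Sgk1 encodes the kinase that raises sodium channel and potassium channel activity in epithelia, the inner ear among them, under corticosteroids. Its GCRMA values (97890_at) were 9.58, 9.55, 9.34 and 9.24 in wild-type and 9.95, 9.82, 9.52 and 9.81 in COUP-TFI-/-. Within each set the genotypes did not overlap, and the differences of 0.32 and 0.38 were close to each other. Across the sets knockout chip B1 fell below both wild-type chips of set A.

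Dusp1 encodes the phosphatase that switches off MAP kinases. It read (104598_at) 9.01, 8.98, 8.95 and 8.90 in wild-type and 9.30, 9.23, 9.30 and 9.45 in COUP-TFI-/-. No chip overlapped between genotypes, and the knockout was higher by 0.27 in the first set and 0.45 in the second. Errfi1 encodes MIG6, a feedback inhibitor of the EGF receptor. Its probe set 93975_at read 8.69, 8.69, 8.44 and 8.54 in wild-type and 8.89, 8.90, 8.82 and 8.94 in COUP-TFI-/-, without overlap in GCRMA. By dChip this probe set overlapped, since knockout chip A2 (1488) lay below wild-type chips A1 (1536) and A2 (1621), and the difference was 0.03 for set A and 0.18 on average. The other, 93974_at, read 8.73, 8.92, 8.49 and 8.71 in wild-type and 8.98, 9.04, 9.01 and 8.88 in COUP-TFI-/-. There the genotypes were apart within each set, although wild-type chip A2 lay above knockout chip B2. The mean GCRMA differences of 93975_at and 93974_at were 0.29 and 0.26, and that of 93974_at was 0.25 by dChip.

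Pck1, the cytosolic PEPCK that commits carbon to gluconeogenesis in liver and kidney and to glycerol synthesis in fat, was the one gene lower in COUP-TFI-/- in both sets. Probe set 160481_at read 6.59, 6.46, 6.35 and 6.45 in wild-type and 6.22, 6.28, 6.13 and 6.04 in COUP-TFI-/-. Within each set both knockout chips were below both wild-type chips, as for 3.65% of all probe sets. Across the sets, too, all knockout chips were below all wild-type chips, a stricter rule whose share of all probe sets was not computed. The differences of -0.28 (set A) and -0.32 (set B) gave a fold of 0.814. By dChip it was smaller, -0.06 and -0.16, and wild-type chip A2 (525) lay below 3 of the knockout chips, of which the highest read 581.

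**Figure D2:**
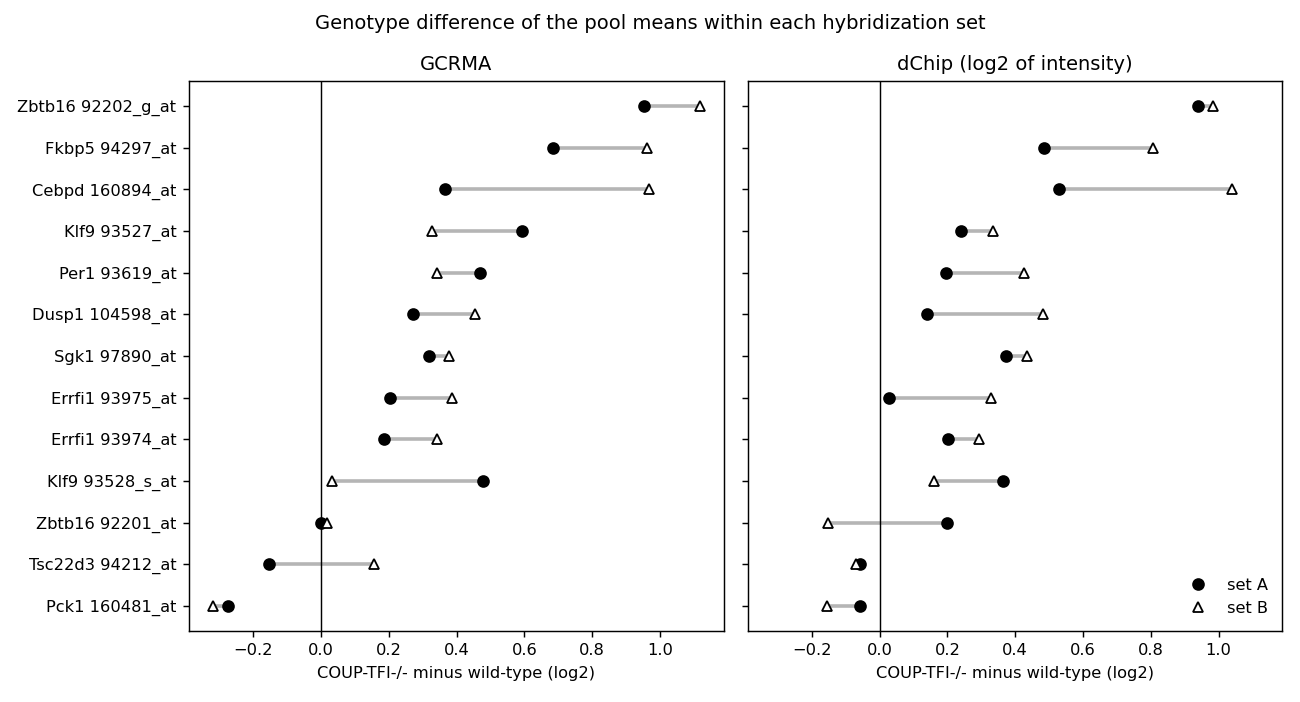
COUP-TFI-/- minus wild-type (log2, horizontal axis) of the pool means within set A (filled circles) and set B (open triangles) for each probe set, from the GCRMA values on the left and the log2 of the dChip values on the right. Zbtb16 (92202_g_at) and Fkbp5 have the highest GCRMA values in set A, at 0.95 and 0.68, Cebpd reads 0.37 there and 0.97 in set B, and Tsc22d3 crosses 0 in GCRMA.

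The 2 normalizations and the 2 sets were compared for the same probe sets. GCRMA and dChip gave the same sign for 12 of 13 probe sets, the exception being Tsc22d3, and the dChip median was 0.29 against -0.01 over all probe sets. By dChip, both knockout chips were above both wild-type chips within each set for 9 probe sets of 8 genes, with 4.09% of all probe sets at that rule. In GCRMA the median difference over the 13 probe sets was 0.32 for set A and 0.34 for set B, and the signed difference was higher in set B for 9 probe sets and in set A for 4. Duplicate chips of the 13 probe sets differed by a median of 0.09 log2 units and at most by 0.32 (Cebpd). The median gap of all probe sets was also 0.09.

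**Figure D3:**
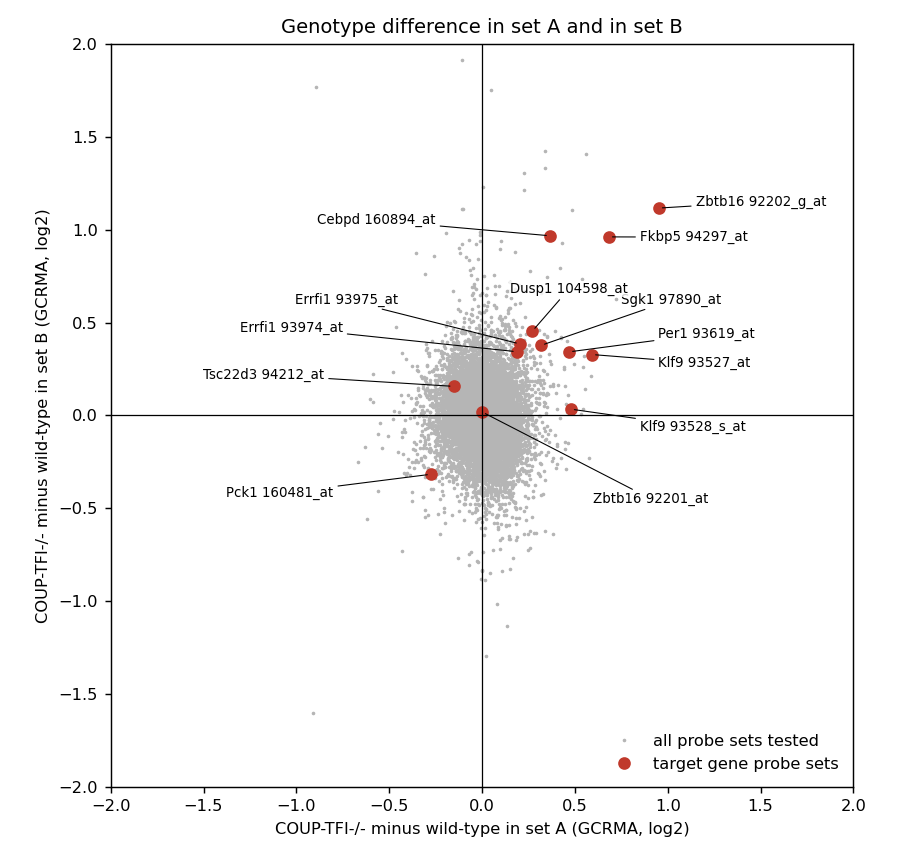
COUP-TFI-/- minus wild-type (GCRMA, log2) in set A (horizontal axis) and set B (vertical axis) for every probe set tested (grey) and for the 13 target gene probe sets (red); 1 probe set beyond 2 log2 units is not drawn. Zbtb16 (92202_g_at) and Fkbp5 lie to the upper right of the bulk, whereas Zbtb16 (92201_at) and Tsc22d3 lie within it.

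How these genes vary apart from genotype was tested on the difference between the hybridization sets, a contrast that was not used to choose them. It passed limma's adjusted p threshold of 0.05 for 4 of the 13 probe sets, beside 25.8% of all probe sets, so that the count is near the background. Without wild-type chip A2 the count was 2. Klf9 (93528_s_at) was 0.67 ± 0.11 higher in set A (SE, adjusted p = 0.00044), by 0.45 in wild-type and 0.90 in COUP-TFI-/-, and passed in 13 of 14 alternatives of the analysis. Zbtb16 (92202_g_at) was 0.47 ± 0.10 higher in set A (adjusted p = 0.00246). Tsc22d3 was lower in set A, with a difference of -0.40 ± 0.10 (adjusted p = 0.0104), and so was Per1, with -0.29 ± 0.10 (adjusted p = 0.0389). Over the alternatives Zbtb16 passed in 12 of 14, Tsc22d3 in 11 and Per1 in 6, where the adjusted p of Per1 ranged from 0.00189 to 0.584. The Per1 call was lost without any one of wild-type chips A2 and B1 and COUP-TFI-/- chips A1, A2 and B2, and that of Tsc22d3 without wild-type chip A2 (adjusted p = 0.054). The set difference had the same direction in both genotypes for 10 of 13 probe sets. With dChip 1 of the 13 passed, Klf9 (93528_s_at), against 11.7% of all probe sets. The other Klf9 probe set, 93527_at, differed by -0.07 between the sets (adjusted p = 0.633), so the 2 Klf9 probe sets again gave different values. Sets differ in RNA pools as well as in hybridization time, and these cannot be told apart.

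**Figure D4:**
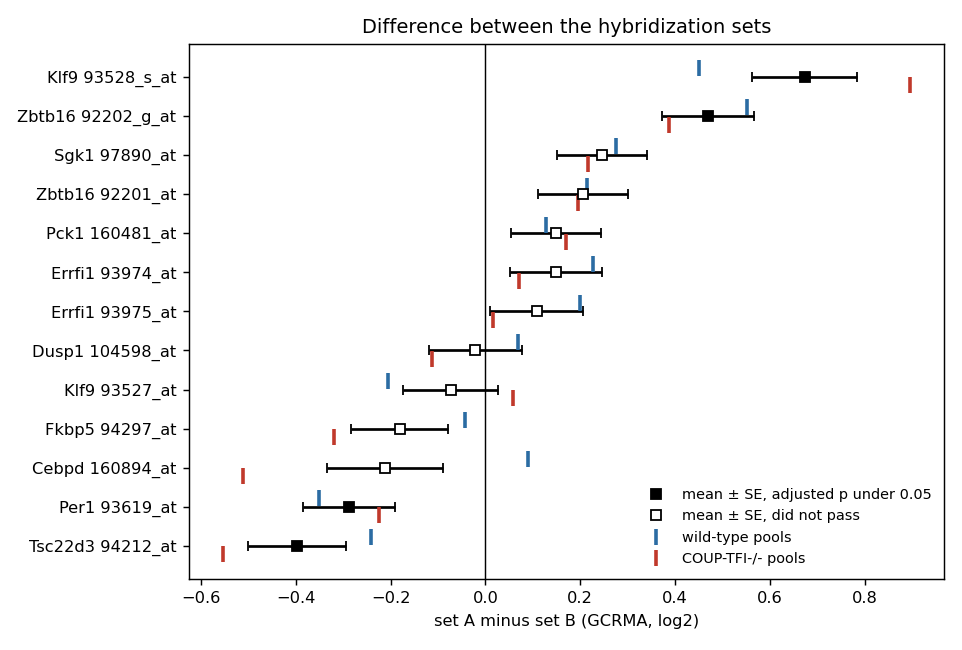
Set A minus set B (GCRMA, log2, horizontal axis) of the 13 probe sets, as mean ± SE from the limma fit (squares, filled where the adjusted p was under 0.05), with the wild-type pools (blue) and the COUP-TFI-/- pools (red) as ticks. Klf9 (93528_s_at) and Zbtb16 (92202_g_at) were higher in set A, and Tsc22d3 and Per1 were higher in set B.

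The rest of the glucocorticoid pathway was read from 86 further genes on the chip, in 5 lists written with earlier results of these data known, so that their counts are not independent evidence of a direction. In the limma fit of the genotype contrast, 4 of the 86 genes were higher in COUP-TFI-/- at an adjusted p under 0.05, and none was lower. These 4 genes are 4.65% of the 86, against 0.105% of all probe sets. At an unadjusted p under 0.05 the count was 18 of the 86 genes, beside 569 of all 12422 probe sets. With dChip 0 of the 86 passed, with 6 at an unadjusted p under 0.05, beside 264 of 12421 probe sets.

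The receptor itself, Nr3c1 (98818_at), read 4.92, 5.13, 5.19 and 4.98 in wild-type and 5.25, 5.28, 4.84 and 5.18 in COUP-TFI-/-. The groups overlapped, and differed by 0.24 within set A and by -0.07 within set B (mean 0.08 ± 0.10 SE, limma adjusted p = 1). Of the 8 genes for the receptor and steroid handling, none passed, and 0 had an unadjusted p under 0.05. Star, which brings cholesterol into mitochondria for steroid synthesis, differed by 0.15, and Hsd11b1, which regenerates active hormone, by 0.11. Of the 11 receptor chaperones none passed (1 unadjusted), and 6 were lower in both sets, led by the cyclophilin Ppid at -0.23 and the Fkbp5 counterpart Fkbp4 at -0.18. The share of all probe sets lower in both sets was not computed, so this count has no background. Of the 10 coregulators none passed (1 unadjusted). Nrip1 (RIP140), a corepressor of nuclear receptors, had the largest value of these, 0.18 for set A and 0.88 for set B (adjusted p = 0.323), and Med1 differed by 0.13.

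All 4 genes that passed came from the list of 38 other induced genes. There 21 were higher in both sets, beside 24.2% of all probe sets, and 2 were lower in both, with a median of 0.12. Sesn1, a sestrin that restrains mTORC1, ranged from 9.25 to 9.44 on the wild-type chips and from 9.97 to 10.10 on the COUP-TFI-/- chips. The groups did not overlap, the difference was 0.72 within set A and 0.63 within set B, and the mean rise was 0.68 ± 0.10 (SE, adjusted p = 0.00731). Ddit4 (REDD1), another brake on mTORC1, read 9.20, 9.14, 9.38 and 9.28 in wild-type and 9.59, 9.62, 10.10 and 10.42 in COUP-TFI-/-, a rise of 0.68 ± 0.11 (adjusted p = 0.0271) that was larger in set B (0.93) than in set A (0.43). Sult1a1, a sulfotransferase of phenols, rose by 0.64 ± 0.10 (adjusted p = 0.014), with 0.54 and 0.74 in the 2 sets. Mt2, a metallothionein that binds zinc and copper, rose by 0.61 ± 0.11 (adjusted p = 0.0389), with 0.42 and 0.80. By dChip the mean difference of Mt2 was 0.27, while those of Sesn1, Ddit4 and Sult1a1 were 0.58, 0.64 and 0.66. Across the alternatives of the analysis, the adjusted p of each of these 4 ranged up to 1, and they passed in 8 (Sesn1), 7 (Ddit4), 8 (Sult1a1) and 6 (Mt2) of 16. Without COUP-TFI-/- chip B1 the count over the 86 genes was 9, and without wild-type chip A2, wild-type chip B1 or COUP-TFI-/- chip A1 it was 0.

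Glul, the glutamine synthetase and a classical hormone target, depended on the probe set. The one with the higher mean, 161826_r_at, which the list used, differed by -0.13 (adjusted p = 1), while 94852_at rose by 0.74 ± 0.10 (adjusted p = 0.00474). Further induced genes with values between 0.30 and 0.49 that did not pass were Klf6, Map3k6, Nfkbia, Mt1, Pdk4, Saa3, Foxo3 and Lpin1, chosen for mention after their values were seen. Among the 19 genes that the hormone represses, none passed (2 unadjusted) and the median was 0.01. Of the 19 genes, 3 had a mean under 4 log2 units, so signal limits the reading of that part of the list. The chemokines Ccl2 and Cxcl1 had the largest absolute means over the sets, -0.36 (adjusted p = 0.6) and -0.29 (adjusted p = 0.909). Pomc changed direction between the sets, at -0.72 within set A and 0.65 within set B, with a mean of -0.03.

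**Figure D5:**
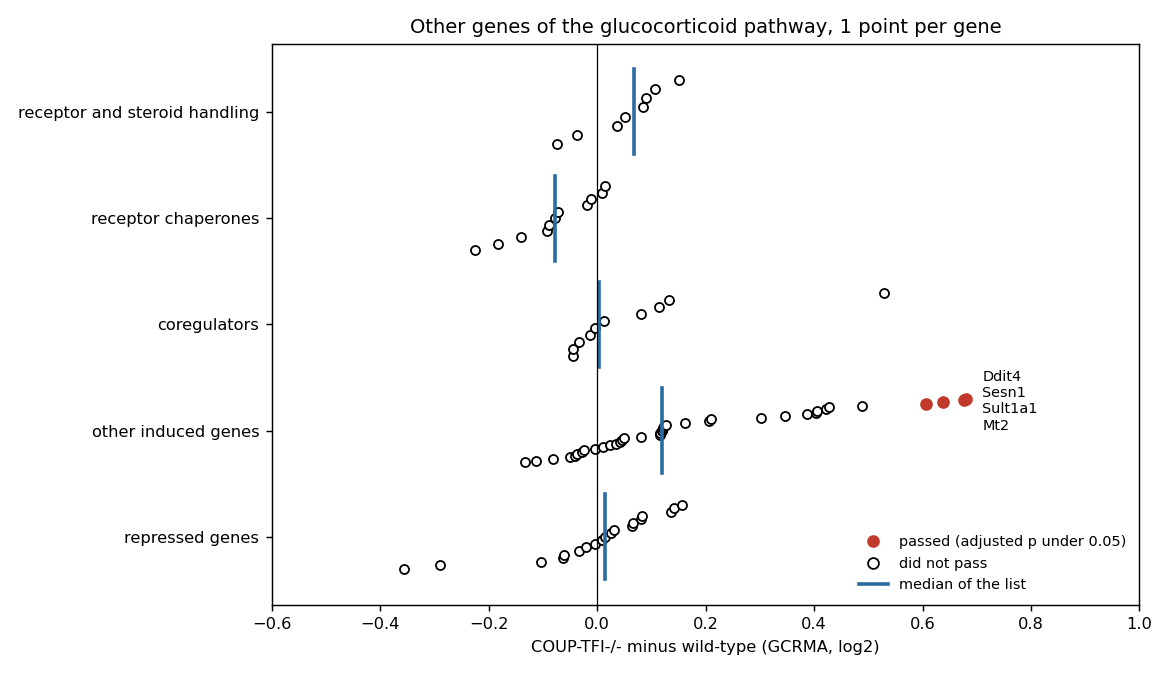
COUP-TFI-/- minus wild-type (GCRMA, log2, horizontal axis) for the 86 genes of 5 pathway lists, 1 point per gene, filled red where the limma adjusted p was under 0.05, with the median of each list as a blue line. The 4 genes that passed lie between 0.61 and 0.68 in the list of other induced genes.

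Genes that mark handling of the tissue or other cell types were read in the same fit. For comparison with the counts below, 569 of all 12422 probe sets had an unadjusted p under 0.05 in limma. Of all probe sets 0.105% passed after adjustment, and 24.2% had a higher mean in both sets. Per1, Dusp1 and Klf9 are also clock or immediate early genes. Of the other 17 immediate early genes none passed in limma and 3 had an unadjusted p under 0.05, with a median of 0.05, and the largest values were 0.44 for Ccn1 (adjusted p = 0.222) and 0.27 for Myc. Fos differed by -0.51 within set A and by 0.60 within set B (adjusted p = 1). Of the 12 other clock genes none passed and 0 had an unadjusted p under 0.05, with a median of 0.00, Per3 at -0.14 and Bhlhe40 at -0.06 having the largest values.

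Markers of striated muscle differed between the genotypes mainly in set B. Of 20 muscle genes, 11 had a higher mean in both sets and 12 had an unadjusted p under 0.05. After adjustment 2 were higher in COUP-TFI-/-, both developmental myosins, Myh8 (0.98 ± 0.14 SE, adjusted p = 0.00916) and Myh3 (0.80 ± 0.12, adjusted p = 0.014). Within set A, Myh8 differed by 0.56 and Myh3 by 0.49, and within set B by 1.41 and 1.11. The median of the list was 0.01 for set A and 0.67 for set B. A second Myh8 probe set, 162374_r_at, differed by -0.01 (adjusted p = 1). Myh1 differed by 0.05 (set A) and 1.75 (set B) (adjusted p = 0.426). The summed linear level of the list ran from 13796 to 22566 on wild-type chips and from 21968 to 24747 on knockout chips, and its log2 difference was -0.02 for set A and 0.77 for set B. No muscle gene had a mean under 4 log2 units. The part of muscle RNA in the differences of the target genes was not tested in either set.

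Of 10 fat genes, 4 had an unadjusted p under 0.05 and 1 passed. Ucp1, the uncoupling protein of brown fat, was lower in COUP-TFI-/- (-1.26 ± 0.13 SE, adjusted p = 0.000258; second probe set -0.59, adjusted p = 0.0208), and Cidea differed by -0.32 (adjusted p = 0.661). The summed fat level was 1934 to 2279 on wild-type chips and 1716 to 1958 on knockout chips. Fat also expresses Pck1, which was lower in the same direction, and the part of fat RNA in the Pck1 value was not tested.

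The summed linear level of macrophage genes ran from 3882 to 4468 on wild-type chips and from 4665 to 4928 on knockout chips, without overlap, and its log2 difference was 0.09 for set A and 0.26 for set B. Such a sum is weighted to the brightest genes of the list, and no background for its overlap was computed. Of the 12 genes none passed in limma (3 unadjusted), and 8 were higher in both sets, with C1qb at 0.31 and C1qc at 0.29, subunits of complement C1q. The part of macrophage RNA in the values of the target genes was not tested.

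No gene passed in the remaining lists. Among 11 liver and kidney genes (1 at an unadjusted p under 0.05) the median was -0.03, and Ttr at -0.28 and Alb at -0.16 had the largest values. In that list 1 gene had a mean under 4 log2 units. Among 10 lymphocyte genes (1 unadjusted) the median was 0.04, with Cd79b at 0.24 and Vpreb3 at -0.17. Among 10 neutrophil genes (1 unadjusted) it was 0.08, with S100a8 at 0.22 and Ltf at 0.20. The 6 erythroid genes (0 unadjusted) had a median of 0.03, with Hbb-b2 at 0.08 and Alas2 at 0.06. The 7 genes of brain and choroid plexus (1 unadjusted) had a median of -0.07, with Ttr again and Neurod6 at -0.15. Of these 7 genes, 2 had a mean under 4 log2 units, so signal limits the reading of that part. The 16 inner ear genes (3 unadjusted) had a median of -0.08, with 7 lower and 2 higher in both sets. The share of all probe sets lower in both sets was not computed. None of the 16 genes had a mean under 4 log2 units. The largest values of that list were -0.48 for Tectb (adjusted p = 0.106), a protein of the tectorial membrane, and -0.36 for Sox2 (adjusted p = 0.427), a factor of sensory progenitors.

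The genes whose GCRMA profile over the 8 chips was most like that of Fkbp5 were Il15 (Pearson r = 0.984), Mt2 (0.982), Dpp8 (0.981), Sult1a1 (0.970) and Sesn1 (0.969). Those most like Zbtb16 (92202_g_at) were Ahnak (0.977), Rnf13 (0.970), Myh3 (0.962), Adgre1 (0.950) and Arfgef1 (0.946). The 8 chips come from 4 pools and share genotype and set, so these coefficients are a description. The genotype differences of Il15 (0.19), Mt2 (0.61), Dpp8 (0.25), Sult1a1 (0.64) and Sesn1 (0.68) lay below that of Fkbp5, at 0.82. Those of Ahnak (0.23), Rnf13 (0.15), Myh3 (0.80), Adgre1 (0.11) and Arfgef1 (0.23) lay below that of Zbtb16 (92202_g_at), at 1.03.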

How the data were processed

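Total RNA pools of P0 inner ears were hybridized to 8 chips, and the authors deposited each chip in 2 normalizations. GCRMA values, made by the authors, are on a log2 scale after background correction, normalization between chips and summary over the probes. The dChip values are model-based intensities on a linear scale, also deposited by the authors. The software versions are not given in the sources used here. The 66 Affymetrix control rows among 12488 were dropped, and of the other 12422 probe sets 10833 carry 1 symbol in the platform annotation, 396 several and 1193 none. A floor of 1, which 89 dChip values fell short of, preceded the log2 step. One probe set lacked a dChip value and was left out there. Precision is limited by the number of pools, and p-values reflect only these pools and chips. In limma the spread behind a p-value or SE is drawn mostly from all probe sets and less from the probe set itself.

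Duplicate chips of a pool were averaged, and the 4 means were fitted with limma 3.58.1 in R 4.3.3, with genotype and hybridization set as terms, Benjamini-Hochberg adjusted over all probe sets, 2-sided. The fit has 1 residual degree of freedom, to which limma's prior added 14.3 for GCRMA and 4.55 for dChip. The methods place 1 pool per genotype in each set, and the letter of a chip was read as its set. Across probe sets the set difference of the wild-type pools and that of the knockout pools had r = 0.752, and the numbers of duplicate chips pair nothing. The fit was tested on simulated data. Of several probe sets of a list gene, the brightest by mean GCRMA value was taken. Named genes were all 10 targets, Nr2f1, Nr3c1, the genes of each pathway list past the adjusted p plus the 2 of largest absolute difference, the 2 of largest absolute difference in each list of handling or other tissue, and the 5 genes closest in profile to Fkbp5 and to Zbtb16. Outside this rule, and after their values were seen, Glul, Klf6, Map3k6, Nfkbia, Mt1, Pdk4, Saa3, Foxo3, Lpin1, Pomc, Myh3, Fos, Tectb and Sox2 were named. Members and lists were chosen with earlier results of these data known. Promoter windows and their coordinates are from RefSeq (GRCm38.p6), and Python 3.11.15 with pandas 2.3.3 was used to search them. Alternatives were dChip, a dChip floor of 16, no block, single chips in limma, the methods' 2-way analysis of variance, a replicate block of the chip label, the brighter probe sets, quantile normalization and leaving out each chip.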

Additional observations from a re-analysis of the deposited data

Results flagged for a closer look

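Tsc22d3 (94212_at) moved in opposite directions in the 2 sets, with both COUP-TFI-/- chips below both wild-type chips in set A (difference -0.15 on the log2 scale) and above them in set B (0.16). The difference between the sets in this genotype effect was not tested. Dusp1 (104598_at) had 1 chip away from the other 3 of its group in dChip, COUP-TFI-/- chip B1 at an intensity of 834, where the gap to the nearest chip was 0.900 of the group's range. Of 52 groups of 4 chips examined this was the only such chip. Chance gives about 1 in 20 for independent values, which duplicate chips of shared pools are not. In GCRMA the same chip read 9.30, beside 9.30 on COUP-TFI-/- chip A1.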

How the results depend on the processing

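The count of probe sets with a genotype difference over all probe sets, 13, rested on the settings. It was 1 with dChip and 0 with a dChip floor of 16 (limma, 191 at an unadjusted p under 0.05). With no replicate block of set it was 0 (limma, 38 unadjusted), and with the 8 chips in limma 159. The methods' 2-way analysis of variance gave 1 at the adjusted p and 1347 at an unadjusted p under 0.05. The study took its hits by an unadjusted genotype p with a filter on interaction, so its counts stand at another threshold. The count was 7 with a replicate block of the chip label, 38 over the brighter probe sets (6211 tested) and 2 after quantile normalization. Leaving out each chip gave 1 to 54, the lowest without COUP-TFI-/- chip A1 and the highest without COUP-TFI-/- chip B1. It was 22 without wild-type chip A1, 2 without wild-type chip A2 and 3 without wild-type chip B1. For the 86 other pathway genes, the count of 4 became 0 with dChip, 0 with the floor of 16 and 0 with no replicate block (limma, 6, 7 and 8 unadjusted), 13 with the 8 chips in limma, 0 with the 2-way analysis of variance (21 unadjusted), 2 with the replicate block of the chip label, 9 over the brighter probe sets and 0 after quantile normalization (16 unadjusted), and 0 to 9 when each chip was left out. The chip label pairs nothing by the design. The count of target gene probe sets with a set difference, 4, was 1 with dChip, 0 with the floor of 16 (limma, 4 unadjusted), 8 with the 8 chips in limma and 2 to 4 when each chip was left out, 2 without wild-type chip A2. The median genotype difference of the 13 probe sets, 0.35, was 0.29 with dChip and 0.30 to 0.40 when each chip was left out. Zbtb16 (92201_at), at 0.01, ran from -0.0491 to 0.0678 when each chip was left out and so changed sign. No other genotype difference of the 13 that had 1 direction in both sets changed sign under dChip, quantile normalization, either set alone or a left-out chip. Of the set differences of single probe sets, 159 of the values under alternatives kept their side of the threshold, 14 fell short of it and 7 passed it. For the named pathway genes these numbers were 166, 44 and 8. The causes were not tested. The arrays give no count, so signal limits the reading of dim probe sets such as those of Nr3c1 and, in GCRMA, Pck1. By dChip Pck1 was not dim, at 515 to 668 over the chips, beside chip medians of 291 to 305.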
